A study of Rattus norvegicus with 4 samples.

Results

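Myoglobin and 9 other genes of oxygen storage and oxygen sensing were followed in ribosome profiling of cultured rat heart muscle cells. The genes were Mb and Cygb (globins), Hif1a and Epas1 (α subunits of the hypoxia-inducible factors), Egln1, Egln2 and Egln3 (prolyl hydroxylases), and Vegfa, Bnip3 and Car4, which act in vessel growth, mitochondrial removal and acid-base balance. For each gene the open reading frame (ORF) was chosen by the largest footprint count summed over all libraries among the rows that the deposited annotation classes as annotated. This gave 10 ORFs, of 13694 genes with an annotated ORF and 18847 ORFs in all. The choice had to be made only for Bnip3 and Vegfa, which have more than 1 annotated row. The summed level was used to choose and is given as a description. The list of genes was drawn up with earlier results of these data in view, among them the large changes of Mb and Car4, so those 2 changes are described below with no p-value.

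The cultures are labelled as ventricular cardiomyocytes of Sprague-Dawley rats at postnatal day 2. The cells were freed by repeated enzyme digestion, preplated to remove other cells, and grown in high-glucose medium with serum. The sources used here do not give the oxygen level of the cultures. The PE libraries came from cells exposed for 24 h to 20 µM phenylephrine, an agonist of α-adrenergic receptors that drives hypertrophic growth, and the others from control cells. The sample titles set the groups, since the treatment text names PE for all 4 libraries. Each group had 2 libraries. The labels do not say whether these came from separate cultures, so every p-value rests on a spread between libraries that may be technical. Short RNA pieces protected by ribosomes (footprints) were sequenced, so a level reflects both the amount of an mRNA and how densely it was translated. Library totals ran from 11446574 to 13827599 footprints on ORFs.

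Myoglobin is the haem protein that stores oxygen and helps its diffusion in heart and oxidative skeletal muscle, and cytoglobin is a related globin found mostly in fibroblast-like cells. When oxygen is present, the prolyl hydroxylases mark the α subunits for recognition by the von Hippel-Lindau protein and breakdown. When it is short, the subunits persist, pair with Arnt and bind DNA at hypoxia response elements, whose core reads ACGTG or GCGTG. The control of the α subunits acts largely on the finished protein, which footprints do not measure.

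The upstream sequences of the genes on which the account turns are shown for this core. RefSeq entries on the GRCr8 build, which is newer than the build of the counts, were found by symbol for 9 of the 10 genes, with 2 start sites for Vegfa. Cygb had none. In the lines for Mb and Car4, the genes with large changes, the 250 bases before the start site run 5′ to 3′ on the gene's strand. Capitals mark TATAAA in Mb and the hypoxia core, on either strand, in Car4. The Bnip3 and Hif1a lines are shorter windows around 1 ACGTG each, in capitals. The Bnip3 line also holds both GCGTG matches of that gene, read on the opposite strand as cacgc and left in lower case. The Mb window is chr7:110647743-110647992 on the minus strand and that of Car4 chr10:70325108-70325357 on the plus strand. The short windows come from chr1:203154963-203155212 (Bnip3, minus strand) and chr6:98359648-98359897 (Hif1a, plus strand).
Mb: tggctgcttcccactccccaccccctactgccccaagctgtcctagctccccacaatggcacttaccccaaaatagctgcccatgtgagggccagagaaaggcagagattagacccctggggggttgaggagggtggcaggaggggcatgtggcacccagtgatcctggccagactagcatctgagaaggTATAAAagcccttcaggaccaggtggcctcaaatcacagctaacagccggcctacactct
Car4: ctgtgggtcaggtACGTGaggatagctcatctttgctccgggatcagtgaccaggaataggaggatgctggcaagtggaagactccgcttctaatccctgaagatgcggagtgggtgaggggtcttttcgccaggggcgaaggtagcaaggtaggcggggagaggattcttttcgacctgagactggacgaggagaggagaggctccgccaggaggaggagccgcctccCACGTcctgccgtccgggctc
Bnip3: cgcacgcgccgcACGTGccacacgcgccc
Hif1a: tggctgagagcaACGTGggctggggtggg

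The core ACGTG was present in the Car4, Bnip3 and Hif1a windows. It began 237 and 21 bases before the start site in Car4, the second on the opposite strand. Bnip3 held the palindrome CACGTG, which reads as ACGTG on both strands and was therefore counted as 2 overlapping matches, and GCGTG 2 further times. In Hif1a there were 3 matches, 2 of them from 1 CACGTG. Egln1 held GCGTG once. Neither core was in these windows of Mb, Egln2, Egln3, Epas1 or Vegfa. Of 33469 upstream windows of the same length, 36.7% held at least 1 of the cores, 16.57% held ACGTG and 25.89% GCGTG. Mb was the 1 member with TATAAA, at 60 bases before the start site, which 12.93% of all windows held. Of the muscle motifs, the MEF2 type (CTA, any 4 bases, TAG) was in 3.41% of all windows and the M-CAT element CATTCC in 12.06%, and neither was in any member's. All motifs were searched on both strands. These are matches of letters only, and no binding was measured.

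The members spanned a wide range of levels. Values here are CPM per kb: counts per 1000000 footprints (CPM), scaled between libraries by TMM (trimmed mean of M-values), divided by ORF length. Mb stood at 2859 and 2826 CPM per kb in the control libraries, the 24th highest of 11286 tested annotated ORFs taken 1 per gene. Vegfa (235 and 238) and Egln3 (232 and 231) followed in control, then Hif1a (124 and 130), Cygb (50.8 and 51.4) and Epas1 (19.8 and 20.5). Egln2 (7.20 and 7.51), Egln1 (6.73 and 5.89) and Bnip3 (5.83 and 6.23) were low, and the last 2 overlapped. Car4 was lowest, at 0.366 and 0.379. In PE the order was the same down to Egln2 except for Vegfa (261 and 272) and Egln3 (269 and 274), whose libraries overlapped.

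**Figure D1:**
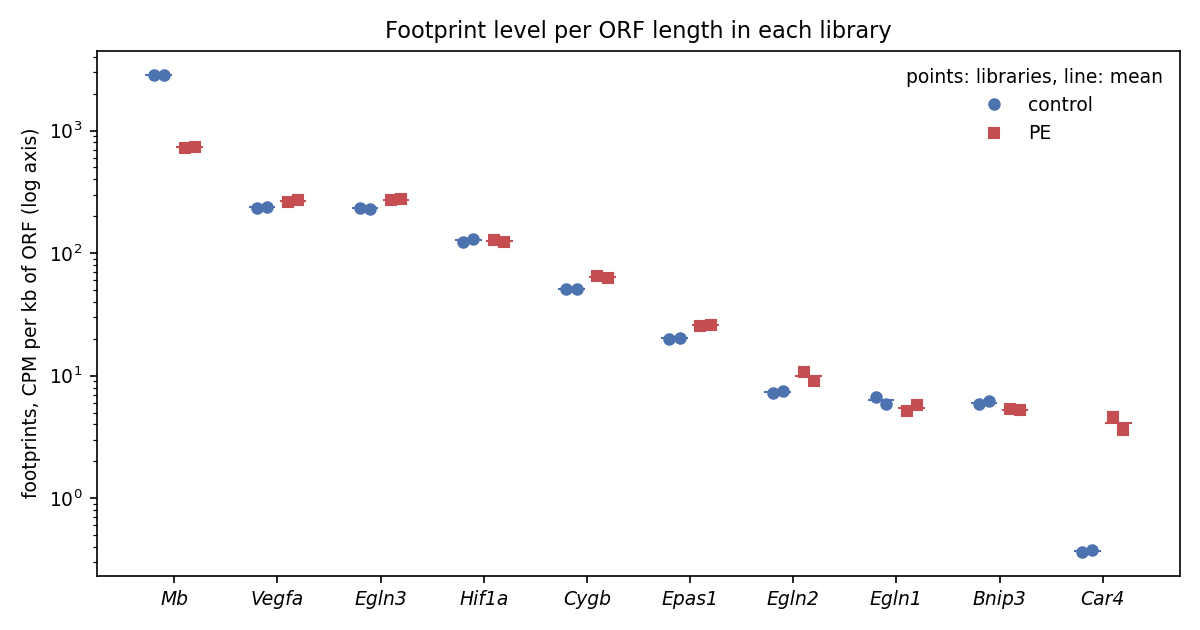
Footprint level of each member in CPM per kb of ORF on a log axis, for the 2 control libraries (circles) and the 2 PE libraries (squares), with the mean as a line, ordered by the control mean. Mb lies far above the rest in control at 2843 CPM per kb and falls to 729 in PE, and Car4 rises from the bottom of the range.

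Of the 8 members other than Mb and Car4, 5 passed the test as higher after PE (Egln2, Epas1, Cygb, Egln3 and Vegfa), and Hif1a, Egln1 and Bnip3 did not pass. Mb (lower) and Car4 (higher) were on the list with their changes known, so their calls carry no weight as tests. The list as a whole was drawn up with earlier results of these data in view, so the other 8 are not an unselected set. All 10 passed the filter on low counts, Car4 only through its PE libraries. ORFs were tested by quasi-likelihood in edgeR, with p-values over 12609 ORFs adjusted after Benjamini and Hochberg and a threshold of 0.05. Over all of these ORFs 21.4% were called higher and 21.3% lower. A call was therefore common, and these 5 members changed by less than 1.5-fold. None of the 5 held its call against a change of 1.5-fold rather than none. The 4 libraries parted by group for 9 of the 10 members, Mb and Car4 among them, and for 68.6% of all tested ORFs. The median size of change, without its sign, was 0.28 on the log2 scale in the members and 0.25 in tested annotated ORFs. The member value includes Mb and Car4. Of those ORFs 8.11% changed at least 2-fold. Mb and Car4 were the 2 members that did so, which was known when they were listed, so no comparison is drawn. In the authors' deposited DESeq2 table, 5 members have an adjusted p below 0.05, but not the same 5: Mb, Car4, Epas1, Egln3 and Vegfa. Cygb (adjusted p = 0.058) and Egln2 (adjusted p = 0.198) do not pass there. Removal of the trend of counts with ORF length moved the calls over all ORFs from 2696 higher and 2690 lower to 3229 higher and 2060 lower, and added Hif1a to the members called higher.

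**Figure D2:**
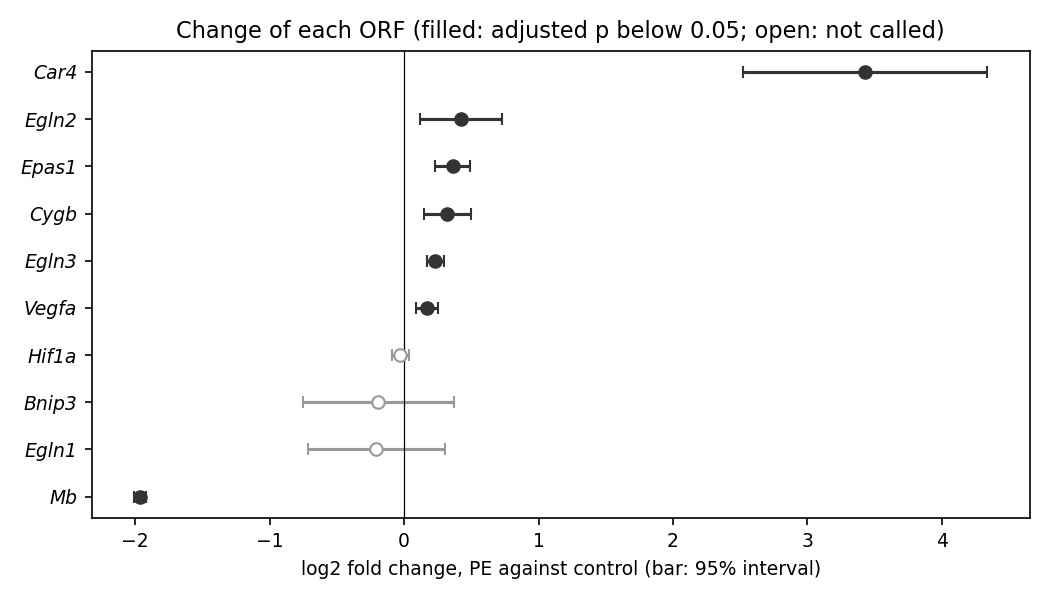
Log2 fold change of each member after PE with its 95% interval from the edgeR fit. Filled points passed the test and open points did not. Mb at -1.96 and Car4 at 3.43 lie apart from the other 8, which lie between -0.21 and 0.42.

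Mb, on chromosome 7 (Rnor_6.0, 118102088 to 118108837, minus strand), encodes 154 residues. It had 15334 and 18306 counts in control and 4014 and 4161 in PE. Scaled, these were 1321 and 1306 CPM in control and 336 and 338 CPM in PE. The replicates lay close together and the groups far apart: 1313 ± 10.7 CPM fell to 337 ± 1.85 CPM (SD, n = 2), a 3.90-fold lower level and a log2 change of -1.96 ± 0.02 (SE). Myoglobin took 0.134% and 0.132% of all footprints in the control libraries and 0.0331% and 0.0332% in PE. Its rank by level per length went from 24 to 176. Of the tested annotated ORFs, 101 fell by more, and the highest control level among those was 465 CPM, below that of Mb. As Mb was listed with its fall known, this standing is a description only. The log2 change stayed between -2.01 and -1.95 in every alternative fit run. With footprints from lysates of whole cultures, fewer cells of a type, less RNA per cell and less translation per mRNA cannot be told apart.

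**Figure D3:**
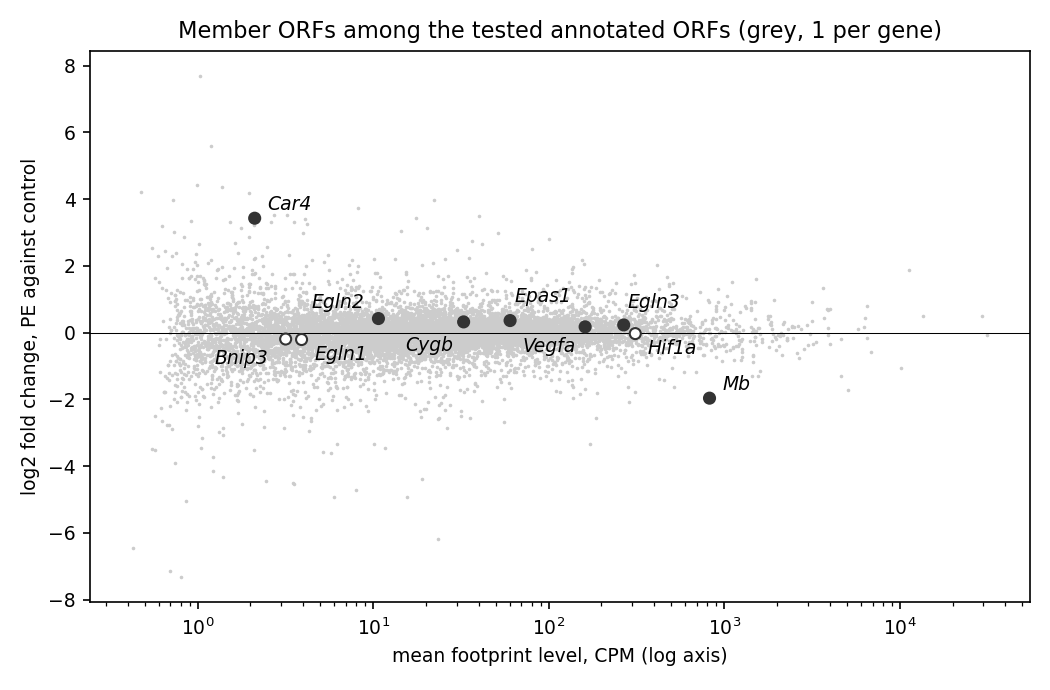
Mean level in CPM on a log axis against log2 fold change for tested annotated ORFs, 1 per gene (grey), with the members labelled (filled where called, open where not). Mb sits below nearly all points of its level and Car4 above nearly all at low levels, with the other members near 0.

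Cell type markers moved beside Mb. Their calls stand beside 21.4% higher and 21.3% lower over all ORFs. Of 9 cardiomyocyte markers measured, 4 were higher and 5 lower by the same test, and their summed level was 87863 to 87903 CPM (on library totals) in control and 104210 to 104360 in PE. The natriuretic peptide Nppa went from 5043 and 4892 CPM in control to 17530 and 17540 in PE, and the actin Actc1 from 24540 and 24510 to 33750 and 33900. These 2 had the largest rises of the list and were set apart after their values were seen. Without them the other 7, which hold all 5 lower markers, summed to 58317 and 58459 CPM in control and 52941 and 52927 in PE. That sum is thus tilted towards a fall. Of the 7, Myl3 rose from 5444 and 5441 CPM to 7170 and 7179 and Tnnt2 from 5976 and 6009 to 6563 and 6553. The adult-type myosin heavy chain Myh6, kept in that sum, fell from 6661 and 6708 CPM to 2583 and 2641, a log2 change of -1.31. Fibroblast markers, 7 genes of which 6 could be tested, 1 higher and 4 lower, summed to 27152 and 27272 CPM in control and 18261 and 18360 in PE. The largest terms were Postn, 13870 and 13940 CPM in control and 6501 and 6481 in PE, and Col1a1. Col1a1 had 8261 and 8383 CPM in control and 5306 and 5408 in PE. The 1 higher gene, Dcn, went from 3126 and 3108 CPM to 4906 and 4894. Macrophage and leukocyte markers (7 genes, 0 higher and 5 lower) summed to 389 and 369 CPM in control and 255 and 254 in PE. Smooth muscle and pericyte markers (7 genes, 1 higher and 5 lower) summed to 2147 and 2182 CPM in control and 1814 and 1816 in PE. No marker was at 0 in all libraries, though the collagen gene Col1a2 had a count in 1 library only. The share of these cell types in the Mb change was not tested. Of 9 symbols of erythroid genes, which would mark blood carried over, 0 were matched, so no erythroid level is given.

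The 5 genes whose pattern over the 4 libraries was most like that of Mb were Frem2, Cemip, Dpt, Peg3 and Pltp. Likeness was the distance between log2 CPM values centred on each ORF's mean, among 1739 annotated ORFs of at least 100 CPM on average. Frem2, a protein of the extracellular matrix, was nearest at a distance of 0.0605, with 220 ± 7.16 CPM in control and 56.7 ± 0.0244 CPM in PE. Cemip, a hyaluronan-degrading protein, was at 0.115, and dermatopontin (Dpt), the imprinted zinc finger gene Peg3 and the phospholipid transfer protein Pltp at 0.142 to 0.190. Their log2 changes ran from -2.08 to -1.79, so in a design of 2 groups likeness is mostly likeness of fold. By correlation instead of distance, 1 of the 5 stayed, and 351 ORFs had a correlation over 0.99 with Mb.

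Cygb, on chromosome 10 (105619694 to 105627921, minus strand), went the other way from Mb. It had 28.9 and 29.3 CPM in control and 37.4 and 35.5 in PE. Both PE libraries were above both controls, with a log2 change of 0.32 ± 0.09 (SE) and an adjusted p = 0.0029 in edgeR. The call was lost in DESeq2 (adjusted p = 0.056), and the authors' deposited table gives an adjusted p of 0.058. Per ORF length, Mb exceeded Cygb 56.3 and 55.0 times in the control libraries and 11.1 and 11.8 times in PE. Cytoglobin is known from fibroblasts. Their marker list summed lower in PE as given above, with Postn and Col1a1 its largest terms and Dcn higher. The part of these cells in the Cygb value was not tested.

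Of the α subunits, Epas1 rose and Hif1a did not pass. Epas1 (chromosome 6, 10306590 to 10385213), known for its role in endothelium and erythropoietin control, had 51.9 and 53.6 CPM in control and 67.3 and 68.4 in PE, a log2 change of 0.36 ± 0.06 (SE; adjusted p = 1.8e-05 in edgeR). The gap between the groups was many times the spread within them. Hif1a (chromosome 6, 96811208 to 96854854) had 307 and 322 CPM in control and 314 and 303 CPM in PE. Its groups overlapped, and the log2 change of -0.03 had a 95% interval of -0.09 to 0.03 with an adjusted p = 0.48 in edgeR. Removal of the ORF length trend turned it to 0.091 with an adjusted p = 0.022, and it was 0.007 without control replicate 2, so no direction is given for it. Hif1a carried 86.3% and 86.4% of the level per length of the pair in control and 83.2% and 82.4% in PE.

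Egln3 had the highest level of the prolyl hydroxylases, which use oxygen to modify the α subunits. By counts per ORF length it held 94.3% to 94.9% of the level of the 3 genes in every library. By pooled P-sites per kb, positions of the ribosome's peptidyl site within footprints, it held 89.6%, with 6.38% for Egln1 and 4.05% for Egln2. Egln3 (chromosome 6, 75051892 to 75075609, minus strand) had 247 and 246 CPM in control and 286 and 292 CPM in PE. This rise was small but well outside the spread, with a log2 change of 0.23 ± 0.03 (SE) and an adjusted p = 2.3e-07 in edgeR.

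Egln2 (chromosome 1, 83969926 to 83976341, minus strand) had 8.96 and 9.34 CPM in control and 13.3 and 11.3 CPM in PE. Its log2 change of 0.42 ± 0.15 (SE) passed with an adjusted p = 0.023 in edgeR. The call did not hold without control replicate 1 (adjusted p = 0.073), without PE replicate 1 (adjusted p = 0.24) or in DESeq2 (adjusted p = 0.19), and it rests on 104 and 131 counts in control and 159 and 139 in PE. Egln1 (chromosome 19, 57662278 to 57699113, minus strand), the main oxygen sensor of most tissues, had 4.48 and 3.92 CPM in control and 3.43 and 3.82 CPM in PE. The groups lay apart by little, and the log2 change of -0.21 had an interval of -0.72 to 0.31 (adjusted p = 0.55 in edgeR). The Egln1 ORF, of 222 residues in the annotation, drew 0.394 counts per P-site, where the median ORF with a count drew 1.16. Its count level may thus cover only some of its footprints, which was not tested.

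Vegfa (chromosome 9, 17341355 to 17353794), which encodes the vascular endothelial growth factor induced by hypoxia, rose slightly. It had 151 and 153 CPM in control and 167 and 175 CPM in PE. The PE libraries were both higher, by a log2 change of 0.17 ± 0.04 (SE; adjusted p = 7.0e-04 in edgeR), which is a rise of 1.13-fold.

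Car4 (chromosome 10, 72272381 to 72280843) encodes a carbonic anhydrase held on the outer cell membrane, where it interconverts carbon dioxide and bicarbonate. It had 4 and 5 counts in control and 52 and 42 in PE, or 0.345 and 0.357 CPM against 4.35 and 3.41 CPM. The PE values stood far above the controls in both libraries, a fitted 10.8-fold rise with a log2 change of 3.43 ± 0.45 (SE). From the summed counts of 9 and 94 the ratio was 11.0, with an exact 95% interval of 5.57 to 24.9 that covers counting error only. Of tested annotated ORFs, 12 rose by more, a description only, as Car4 was listed with its rise known. In PE Car4 was still the lowest of the 10 members per ORF length, at 4.12 CPM per kb.

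Bnip3 (chromosome 1, 211249031 to 211265161, minus strand), a hypoxia-inducible protein of the outer mitochondrial membrane that promotes mitophagy, could hardly be read from the counts. They were 38 and 49 in control and 36 and 36 in PE, or 3.27 and 3.50 CPM against 3.01 and 2.93 CPM. The log2 change of -0.19 had an interval of -0.75 to 0.37 and did not pass (adjusted p = 0.62 in edgeR). Yet the annotation gives 9134 P-sites for this ORF, so that 0.0174 counts were assigned per P-site. By P-sites per kb Bnip3 was second of the members at 16282, behind Mb at 77823 and ahead of Vegfa at 11944 and Egln3 at 10432. By counts summed over the libraries and divided by length, it was ninth, at 283 per kb. A further annotated Bnip3 row of 225 nt begins at the same base and has 2488 P-sites and 0 counts. Whether reads shared by such rows were left out of the counts is not given in the sources used here.

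**Figure D4:**
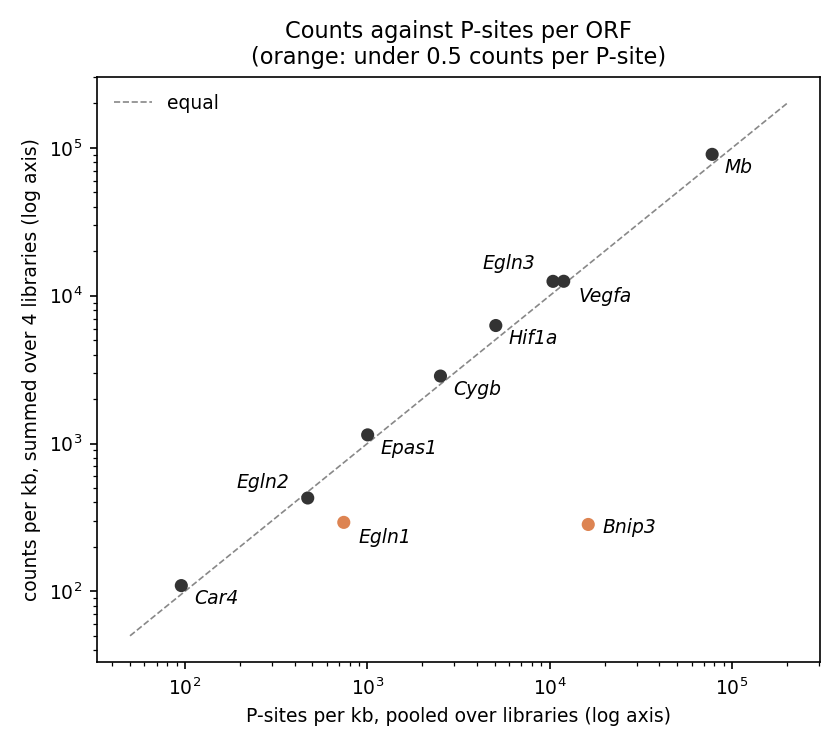
P-sites per kb (x, pooled over libraries) against counts per kb summed over the 4 libraries (y) for the members, both on log axes, with a dashed line of equality and orange for ORFs under 0.5 counts per P-site. Bnip3 falls far below the line at 0.0174 counts per P-site and Egln1 below it at 0.394, and the other 8 lie close to it.

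For the other 8 members counts and P-sites went together, at 0.908 (Egln2) to 1.24 (Hif1a) counts per P-site. Reading-frame shares were like those of the whole table. Between 81.9% (Egln3) and 88.1% (Mb) of a member's P-sites were in frame 0, against 84.7% of 64444083 P-sites over all ORFs.

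Member genes had 5 other rows in the annotation, and none reached a level that could be tested. The upstream ORF that overlaps the start of Egln2, of 26 codons, had 38 P-sites and 1, 1, 1 and 0 counts in control 1, control 2, PE 1 and PE 2. A downstream ORF of Egln3, of 50 codons, had 3 and 3 counts in control and 6 and 5 in PE. The other rows, 2 of Vegfa with 69 nt and the short one of Bnip3, had P-sites and 0 counts. No other listed gene overlapped a member in genome span.

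The other genes of the oxygen-sensing machinery went both ways. Of 13 tested, 4 were higher and 4 lower, where 21.4% and 21.3% of all ORFs were. Their median log2 change was 0.06 against -0.01 over tested annotated ORFs. The ubiquitin ligase subunits Rbx1 and Elob had 0.39 ± 0.05 and 0.56 ± 0.13 (SE), the latter at 0.147 counts per P-site, and Cited2, which competes with the α subunits for coactivators, rose by 0.28. The chaperone Hsp90ab1 had 0.06, at 0.373 counts per P-site, a call lost with library totals (adjusted p = 0.50), without control replicate 1 (0.15), without PE replicate 1 (0.099) and in DESeq2 (0.14). Among the partners of the α subunits Arnt2 fell by 1.31 ± 0.19 (SE) and Arnt by 0.24 ± 0.06, from 79.3 ± 0.272 to 67.0 ± 1.46 CPM (SD, n = 2). The coactivator Crebbp had -0.30, which turned to 0.02 once the length trend was removed, as Arnt lost its call there (adjusted p = 0.084 in edgeR). Hif1an, the asparagine hydroxylase that blocks coactivator binding, fell by 0.19, a call that was lost in DESeq2 (adjusted p = 0.18) and without control replicate 2 (0.20) or PE replicate 2 (0.070). Vhl, the recognition subunit for hydroxylated α subunits, had 21.6 ± 5.63 CPM in control and 20.4 ± 0.758 CPM in PE and did not pass (adjusted p = 0.73 in edgeR). Hif3a had 5 and 0 counts in control and 2 and 4 in PE and was not tested.

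Of 36 tested genes known to be induced by hypoxia, outside the members, 23 were higher and 3 lower, where 21.4% and 21.3% of all ORFs were. Their median log2 change was 0.35. The list was drawn up with earlier results of these data known. The list holds enzymes of glycolysis and matrix genes that other signals also move. What moved them here was not tested. The lactate exporter Slc16a3 rose 2.13-fold from 132 ± 0.157 to 281 ± 10.2 CPM (SD, n = 2). The collagen lysyl hydroxylase Plod2 rose 1.63-fold from 680 ± 3.54 CPM and the transferrin receptor Tfrc 1.46-fold from 873 ± 20.3 CPM. Those that fell were the collagen prolyl hydroxylase subunit P4ha2, by 0.57 ± 0.03 (log2, SE), Ndrg1 by 0.20 and the glucose transporter Slc2a1 by 0.08. The Slc2a1 call was lost once the length trend was removed (adjusted p = 0.99), without PE replicate 1 (adjusted p = 0.34) and in DESeq2 (adjusted p = 0.11), and that of Ndrg1 without control replicate 1 (adjusted p = 0.091) and in DESeq2 (adjusted p = 0.084). A ratio under 0.5 counts per P-site was found for 7 of the 36, and a fit without such ORFs called 20 higher and 3 lower. The list shares Car9, Car12, Bnip3l and Hmox1 with lists below. Genes lower in this list numbered 6 with library totals and 1 in DESeq2.

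**Figure D5:**
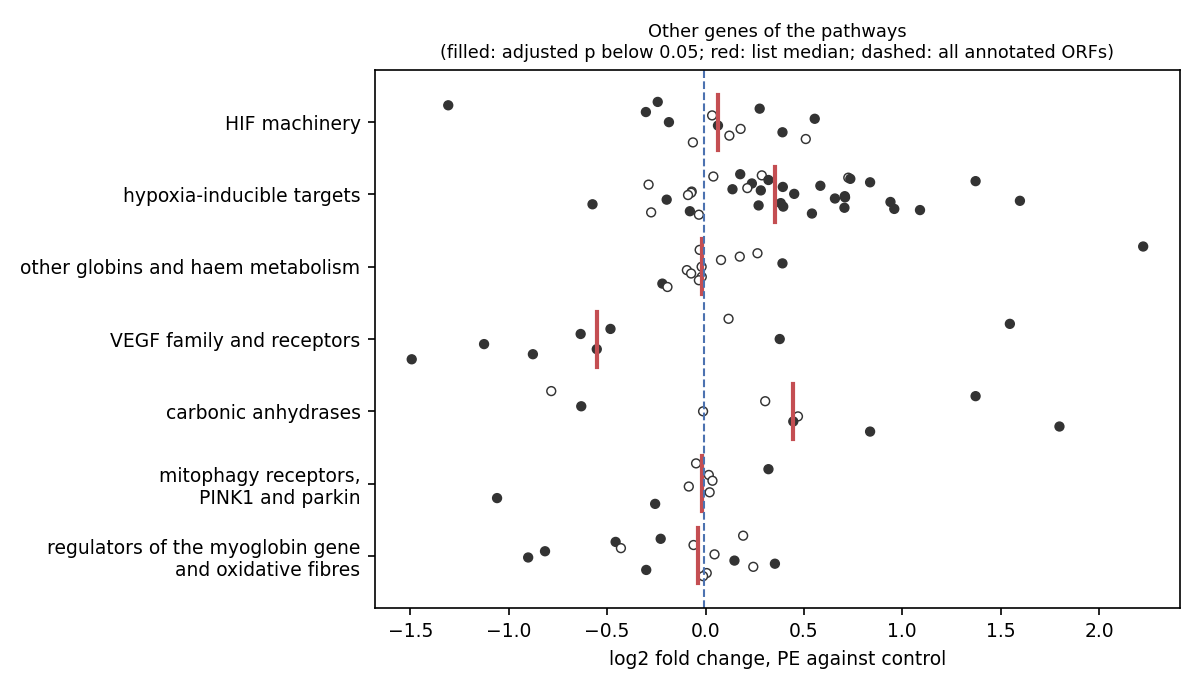
Log2 fold change after PE of the tested genes in 7 pathway lists, 1 point a gene (filled where called), with each list's median in red and the median of all tested annotated ORFs dashed. The hypoxia-inducible targets have a median of 0.35, the VEGF family and receptors one of -0.55, and the machinery, haem and mitophagy lists lie around 0.

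Of the relatives and receptors of Vegfa, 9 were tested, and 6 were lower and 2 higher, where 21.3% and 21.4% of all ORFs were. Their median log2 change was -0.55. The ligand Vegfd fell from 79.2 ± 5.63 to 28.1 ± 1.32 CPM (SD, n = 2), a log2 change of -1.49 ± 0.07 (SE). Pgf fell by 1.13 and Vegfc by 0.88, while the co-receptor Nrp1 fell by 0.63. The receptor of lymphatic endothelium Flt4 rose from 31.3 ± 0.525 to 91.5 ± 5.69 CPM, and Nrp2 rose by 0.38. Endothelial markers were at a low level in these cultures, 227 to 235 CPM summed over 7 genes in control and 132 to 137 in PE, with 1 higher and 4 lower. Cdh5 was the largest term of that sum, at 146 and 137 CPM in control and 67.6 and 75.2 in PE. The receptor Kdr, called lower at 0.276 counts per P-site, is in both lists. The part of endothelial cells in the receptor values was not tested.

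Other carbonic anhydrases than Car4 were measured for 9 genes. Of these 4 were higher and 1 lower, where 21.4% and 21.3% of all ORFs were. Car9 and Car12, membrane enzymes known as hypoxia targets, rose by 0.84 ± 0.14 and 1.37 ± 0.15 (SE), to 17.0 ± 1.74 and 15.9 ± 0.0250 CPM (SD, n = 2). The mitochondrial form Car5b rose by 0.45, a call lost in DESeq2 (adjusted p = 0.16) and without control replicate 1 (0.083), PE replicate 1 (0.067) or PE replicate 2 (0.055). Car8 rose by 1.80 from under 1 CPM at 0.132 counts per P-site. Car8 would not have passed the filter on low counts without its PE libraries, so its call among the 4 higher carries no weight as a test. Car14, another membrane form and the most abundant of them, fell from 95.4 ± 0.438 to 61.6 ± 0.637 CPM.

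Genes of haem synthesis and breakdown mostly did not pass. Of 13 tested genes of other globins and haem metabolism, 2 were higher and 1 lower, where 21.4% and 21.3% of all ORFs were. Their median log2 change was -0.02. Androglobin (Adgb) rose 4.67-fold at a low level, from 0.737 ± 0.0675 to 3.49 ± 0.804 CPM (SD, n = 2), and the synthesis enzyme Cpox by 0.39. Adgb passed the filter on low counts only through its PE libraries, so its call among the 2 higher carries no weight as a test. Urod, also of haem synthesis, fell by 0.22 ± 0.04 (SE).

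Of 8 tested mitophagy genes other than Bnip3, 1 was higher and 2 lower, where 21.4% and 21.3% of all ORFs were. Their median log2 change was -0.02. Bnip3l, the close relative of Bnip3, rose by 0.32 ± 0.07 (SE), from 51.9 ± 3.82 to 64.6 ± 2.79 CPM (SD, n = 2). The kinase Pink1 fell 2.08-fold, from 90.1 ± 2.98 to 43.2 ± 4.38 CPM, and the adaptor Sqstm1 by 0.26.

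Regulators known to act on the myoglobin gene and on oxidative fibre genes went both ways. Among 14 tested, 5 were lower and 2 higher, where 21.3% and 21.4% of all ORFs were. Their median log2 change was -0.04 against -0.01 over tested annotated ORFs. The coactivator Ppargc1a fell 1.87-fold from 68.1 ± 1.49 CPM (SD, n = 2), and the transcription factors Mef2c and Mef2a by 0.46 and 0.23 on the log2 scale. Nfatc2 fell by 0.82 ± 0.20 (SE) at 7.96 CPM in control. The calcineurin subunits Ppp3cb and Ppp3ca rose by 0.35 and 0.15, of which Ppp3ca lost its call with library totals (adjusted p = 0.11), without control replicate 2 (adjusted p = 0.30), without PE replicate 1 (adjusted p = 0.13) and in DESeq2 (adjusted p = 0.18).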

How the data were processed

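The authors deposited raw footprint counts per ORF for the 4 libraries, with a table that, per the file headers, holds their own DESeq2 log2 fold changes and p-values, other values of each ORF (class, coordinates, length), and P-sites pooled over libraries. From the deposited table the ORF values, the P-sites and the members' log2 fold changes and adjusted p-values were used. The submitters' processing notes name Rnor_6.0, STAR 2.4.2a, Bowtie 1.1.2 and cutadapt 2.0. No ORF caller or counting program is given in the sources used here, nor whether counting used strand. Coordinates are 1-based, start to stop, introns included. Per-sample columns left unused numbered 0.

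ORFs passing filterByExpr were fitted in edgeR 4.0.16 (R 4.3.3) with TMM factors of 0.982 to 1.02, robust dispersions and group as the only term. Adjusted p-values (Benjamini-Hochberg) cover all 12609 ORFs fitted. The SE is the size of the log2 change over the root of F, and 95% intervals use the fit's degrees of freedom. The common biological coefficient of variation was 2.18%, so small changes can pass. Replicates differed by more than sampling noise (chi-square per degree of freedom 1.62 in control and 1.60 in PE). The code was tested on simulated data. Alternatives were RLE factors, library totals, no filter, DESeq2 1.42.0, no robust estimation, a replicate block, removal of the length trend, a test against a 1.5-fold change, ORFs of at least 0.5 counts per P-site, and leaving out each library.

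Members and pathway lists were chosen with earlier results of these data known. Named were all members and their other rows, up to 4 genes per direction and list with the smallest p, Vhl, Arnt, Hif1an and Hif3a in any case, and the 5 genes nearest to Mb. A gene that this rule names is not reported here. Marker lists are given as sums. Nppa, Actc1, Myl3, Tnnt2, Myh6, Postn, Col1a1, Dcn, Col1a2, Kdr and Cdh5 were named after their values were seen.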

Additional observations from a re-analysis of the deposited data

Results flagged for a closer look

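Some rows of member genes carried P-sites in the deposited annotation but 0 counts in all 4 libraries, and so lay outside every comparison. The annotated Bnip3 row of 225 nt had 2488 P-sites, the upstream Vegfa row of 69 nt 501 and the annotated Vegfa row of 69 nt 473. Each shares its first base with the row that was used for its gene.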

How the results depend on the processing

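The direction of Mb, Epas1, Egln3, Vegfa and Car4 held in every fit run. The calls of Epas1, Egln3 and Vegfa held in every test against no change that kept all 4 libraries. Mb and Car4 were listed with their changes known, so their calls carry no weight here either. Cygb (0.323) and Egln2 (0.425) had these log2 changes in DESeq2 without a call, with an adjusted p = 0.056 and 0.19, and Egln2 ranged from 0.30 to 0.54 without each replicate in turn. Hif1a, not called, reversed to 0.091 with the length trend removed and ranged from -0.058 to 0.007 without each replicate. DESeq2 called 1724 ORFs higher and 1721 lower. Against a 1.5-fold change 1 member was called higher (Car4) and 1 lower (Mb), both listed with large changes known, and Epas1, Egln3, Vegfa, Cygb and Egln2 lost their calls. The replicate block gave 6 members higher and 1 lower, Car4 and Mb included, and 2721 and 2714 calls over all ORFs. It changed no member's call, and replicate differences of the 2 groups correlated at 0.01 across 9746 ORFs. Whether the replicate numbers pair the libraries is not settled by this, since replicate differences were small. Of the lists, the machinery had 2 higher among ORFs of at least 0.5 counts per P-site and 2 lower with the length trend removed. The hypoxia targets had 6 lower with library totals and 1 in DESeq2, haem metabolism 2 lower with library totals, and the myoglobin regulators 1 higher with library totals and in DESeq2, and 1 to 2 higher without each replicate. The causes were not tested. Egln1 and Bnip3 fell out of the fit restricted by counts per P-site. Depth limits Car4 in control. Egln1 and Bnip3 had few counts for their P-sites, and why was not tested.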
